A study of Homo sapiens with 10 samples.

Results

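SH-SY5Y cells (SHSY5Y in the labels), an established human neuroblastoma line labelled as neural progenitors or neuroblastoma, were given a mimic of the microRNA miR-143-3p or a scrambled miRNA, and their poly(A) RNA was sequenced. The comparison rests on 4 of the 10 libraries of the series: 2 with 50 nM of the mimic and 2 with the scrambled miRNA, whose dose is not given. All were grown in serum-containing DMEM/F12 medium and harvested at 72 h. The other 6 libraries came from the same line given 100 nM of siRNA specific to LncND, a long non-coding RNA (3), or a scrambled siRNA (3), and enter only where named. Of 23426 genes kept in the table, 12558 had a mean of at least 1 FPKM (read fragments per kilobase of transcript length, relative to all mapped fragments of the library) and were tested. The groups are a single line at 1 time point, and the labels do not say that the libraries came from separate cultures, so the tests take account only of variation among these libraries, possibly of technical origin alone.

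MicroRNAs are short RNAs that guide Argonaute proteins to messenger RNAs, mostly through pairing of the seed, the bases near their 5′ end, with a site in the 3′ UTR. Paired messenger RNAs are translated less and are often degraded. miR-143 is best known from smooth muscle, where it is transcribed together with miR-145 and tunes actin and contractile genes. A mimic is a synthetic double-stranded RNA that supplies the mature strand.

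The mature strand is printed first because every site class used here derives from it, with its seed, bases 2 to 8, in capitals. RefSeq places it at chr5:149428978-149428998 on the plus strand of GRCh38.p14. Below it stand 7 matches in 3′ UTRs, from 8mer genes with large falls. Capitals mark the 8mer TCATCTCA, the reverse complement of the seed followed by A.
hsa-miR-143-3p: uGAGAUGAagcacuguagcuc
CDH11: cactttagaatcttTCATCTCAgtgaagga
VASH1: tccatggtatcaccTCATCTCActtcctgt
ZWILCH: tatactttctaaatTCATCTCAgaatatta
MYBL2: cgtcaggcctggccTCATCTCAgaccctgc
GXYLT1: gcagtccttcggctTCATCTCAtagccagt
ABHD14A: caggactcctcattTCATCTCAcagacaca
TUB: tggattttgtccatTCATCTCAtgctctct
These sites lie in the annotated 3′ UTRs of GENCODE 29 transcripts on GRCh38, and for each gene the 8mer nearest to the stop codon is shown. The site of CDH11 is at chr16:64945643-64945650 on the minus strand, starting at base 1953 of a 3′ UTR of 3850 bases. That of VASH1 is at chr14:76781905-76781912 (plus strand, base 2887 of 3997). That of ZWILCH is at chr15:66548891-66548898 (plus strand, base 567 of 1804). That of MYBL2 is at chr20:43716381-43716388 (plus strand, base 294 of 409). That of GXYLT1 is at chr12:42085741-42085748 (minus strand, base 2038 of 5941). That of ABHD14A is at chr3:51981151-51981158 (plus strand, base 133 of 178). That of TUB is at chr11:8104577-8104584 (plus strand, base 2958 of 4493).

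**Figure D1:**
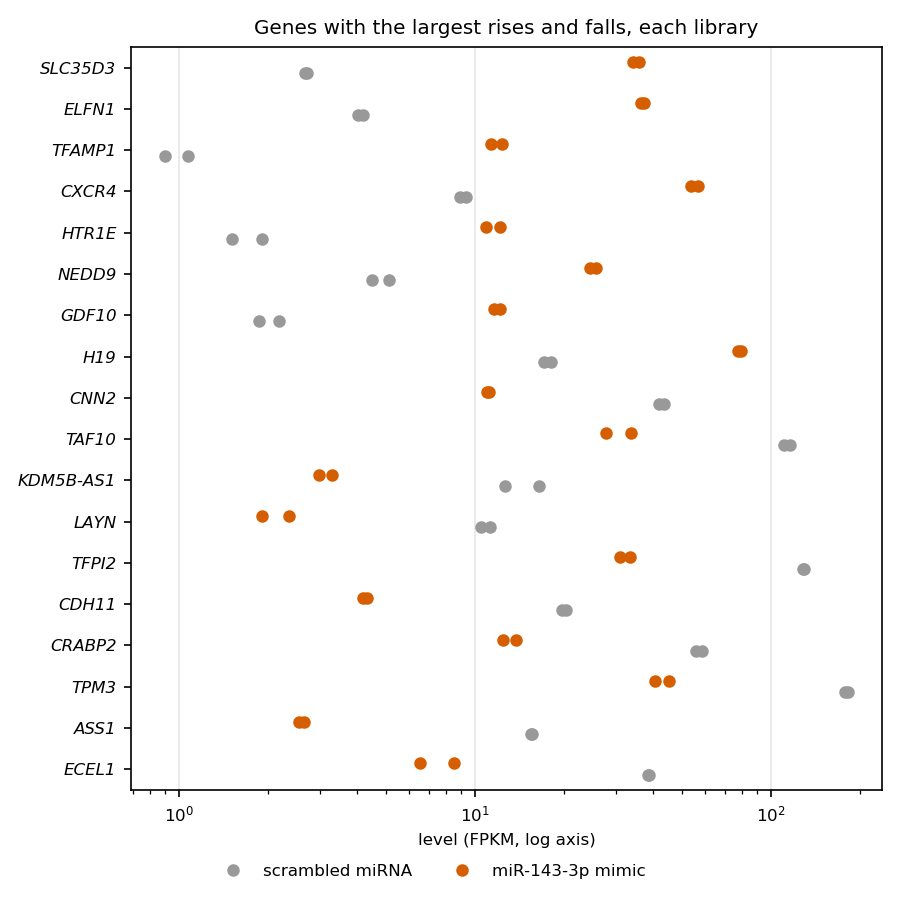
Level of the genes with the largest rises and falls (vertical axis) in each library (FPKM, log axis), 2 points per group. No gene shown has a mimic library between its scrambled miRNA libraries. SNORD58C and H3F3A, each near 0 in a scrambled miRNA library, are not drawn.

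After the mimic, 3094 of 12558 genes rose (24.6%) and 4853 fell (38.6%) at an adjusted p under 0.05 (limma). Most changes were small: 115 genes rose at least 2-fold (0.916%) and 229 fell at least 2-fold (1.82%). The median log2 fold change of all tested genes was -0.062. Rises and falls were nearly balanced when libraries were rescaled by their median ratio, with 3931 up and 4052 down, and under quantile normalization, with 4145 up and 3854 down. Fold changes are mimic over scrambled miRNA on the log2(FPKM + 1) scale, with the standard error where ± follows, and levels given as a mean ± SD have n = 2. With 2 libraries a group, an exact permutation test of a single gene cannot fall below p = 0.333. Estimated depth ranged from 13.8 to 37.4 M fragments. Libraries correlated across genes at 0.997 within each group and at 0.966 to 0.968 between groups.

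Of 18 noradrenergic neuroblastoma markers 17 were tested, and their summed level was 3542 and 3550.3 FPKM in the scrambled miRNA libraries and 3612 and 3618 FPKM in the mimic libraries. Within that sum 8 markers rose and 6 fell (47.1% and 35.3% of those tested, against 24.6% and 38.6% of all tested genes). CHGA and DBH are among them, and their values are given with the neuronal genes. TH, the rate-limiting enzyme of catecholamine synthesis and a defining marker, was not tested, at 0.211 and 0.438 FPKM in the scrambled miRNA libraries and 0.222 and 0.0721 FPKM in the mimic libraries. Endothelial and blood markers summed to 2.33 and 2.78 FPKM in the scrambled miRNA libraries and 2.39 and 2.62 FPKM in the mimic libraries. PECAM1, CDH5, CD3E, HBB, HBA1 and HBA2 were listed at 0, which here means 0.001 FPKM, the lowest value given in any library. Epithelial markers summed to 3.82 and 3.84 FPKM in the scrambled miRNA libraries and 3.38 and 3.9 FPKM in the mimic libraries, with KRT14 listed at 0. Schwann and glial markers summed to 27.4 and 29.7 FPKM in the scrambled miRNA libraries and 41.2 and 41.8 FPKM in the mimic libraries, of which 2 of 16 were tested: PMP22, a myelin protein gene also expressed outside glia, rose from 23 ± 1.02 FPKM to 37.5 ± 0.463 (0.68), and S100B, a calcium-binding protein gene, fell from 3.92 ± 0.568 FPKM to 2.84 ± 0.157 (-0.35), a call lost without scrambled miRNA replicate 1 (-0.23, limma adjusted p = 0.0691) and with unfiltered genes (limma adjusted p = 0.159). ERBB3, MBP and ALDH1L1, below 0.4 FPKM and not tested, were lower in both mimic libraries, and SOX10 and GFAP were below 0.1 FPKM in all libraries. Fibroblast and mesenchymal neuroblastoma markers summed to 702 and 707 FPKM in the scrambled miRNA libraries and 563 and 566 FPKM in the mimic libraries. Of the 11 tested, 10 fell (90.9%, against 38.6% of all tested genes). VIM, the highest, stood at 396 and 401 FPKM with the scrambled miRNA and at 323 and 326 FPKM with the mimic. TWIST1, the next in level, did not pass, at 105 and 107 FPKM with the scrambled miRNA and 109 and 110 FPKM with the mimic. In bulk RNA, fewer cells of a type and less RNA per cell cannot be told apart.

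The largest rise among genes with measurable levels in all libraries was that of SLC35D3 (chr6:137243401-137246776, hg19), a nucleotide sugar transporter-like gene. It stood at 2.67 and 2.71 FPKM with the scrambled miRNA and at 35.8 and 34.1 FPKM with the mimic (3.29 ± 0.056, adjusted p = 2.31e-09). ELFN1, which encodes a synaptic leucine-rich repeat protein, stood at 4.2 and 4.04 FPKM with the scrambled miRNA and at 36.5 and 37.2 FPKM with the mimic (2.88 ± 0.052, adjusted p = 2.31e-09). Both genes were far higher in each mimic library than in either scrambled miRNA library. The chemokine receptor gene CXCR4 (chr2:136871918-136875725, hg19) stood at 9.35 and 8.9 FPKM with the scrambled miRNA and at 53.5 and 56.7 FPKM with the mimic (2.47 ± 0.051, adjusted p = 5.63e-09). The serotonin receptor gene HTR1E rose from 1.71 ± 0.279 FPKM to 11.5 ± 0.885 (2.21), and the focal adhesion scaffold gene NEDD9 from 4.8 ± 0.452 FPKM to 25.2 ± 0.82 (2.17). These receptors and the scaffold had no 7mer or 8mer match in the 3′ UTR searched. GDF10, a TGF-beta family ligand gene, rose from 2.03 ± 0.228 FPKM to 11.9 ± 0.401 (2.10), and its 3′ UTR holds an 8mer. The imprinted non-coding RNA gene H19 rose from 17.6 ± 0.681 FPKM to 78.1 ± 1.43 (2.09).

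The values of 3 other genes among the largest rises were less certain. TFAMP1 is a pseudogene whose reads may be shared with its parent gene, and it rose from 0.988 ± 0.123 FPKM to 11.9 ± 0.7 (2.69). The small nucleolar RNA gene SNORD58C was listed at 0 in both scrambled miRNA libraries and at 201 and 837 FPKM in the mimic libraries, and FPKM of so short a gene is unstable. H3F3A, which has near-identical copies, stood at 0.00129 and 5.74 FPKM with the scrambled miRNA and 11.1 and 12.2 FPKM with the mimic. The first of these is close to the value that stands for 0, so its fold change is not given, and its call was lost without the filter on low values (limma adjusted p = 0.334).

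Among the falls, ECEL1 (chr2:233344536-233352532, hg19), a neuronal membrane peptidase gene, stood at 38.8 and 38.5 FPKM with the scrambled miRNA and at 8.49 and 6.52 FPKM with the mimic (-2.23 ± 0.091, adjusted p = 1.04e-07). ASS1, which encodes the arginine-forming enzyme argininosuccinate synthase, stood at 15.6 and 15.5 FPKM with the scrambled miRNA and at 2.54 and 2.65 FPKM with the mimic (-2.20 ± 0.06, adjusted p = 1.70e-08). The tropomyosin gene TPM3 (chr1:154127779-154164609, hg19), a reported miR-143 target, stood at 182 and 178 FPKM with the scrambled miRNA and at 40.7 and 45.1 FPKM with the mimic (-2.04 ± 0.053, adjusted p = 1.30e-08). In these 3 genes both mimic libraries lay far below both scrambled miRNA libraries. The retinoic acid carrier gene CRABP2 fell from 57 ± 1.91 FPKM to 13.2 ± 0.94 (-2.04), the protease inhibitor gene TFPI2 from 129 ± 0.853 FPKM to 32.2 ± 1.78 (-1.97) and the hyaluronan receptor gene LAYN from 10.9 ± 0.506 FPKM to 2.14 ± 0.32 (-1.92). The general transcription factor subunit gene TAF10 fell from 113 ± 3.4 FPKM to 30.7 ± 4.11 (-1.86) and the calponin gene CNN2 from 42.7 ± 1.33 FPKM to 11.1 ± 0.105 (-1.85). The antisense gene KDM5B-AS1 fell from 14.6 ± 2.7 FPKM to 3.13 ± 0.234 (-1.90). Whether strand was used in the quantification is not stated, so reads from the opposite strand cannot be told apart, although its locus does not overlap that of KDM5B in the table. The cadherin gene CDH11 held an 8mer. The others named here had no 8mer, 7mer or 6mer in the 3′ UTR searched, and KDM5B-AS1 was not searched. TPM3 had no match in the transcript searched and an 8mer in the 3′ UTR of another annotated transcript, and TAF10 had an 8mer in its coding sequence.

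Genes with a 7mer or 8mer match to the seed had lower medians than genes with no match. The 3′ UTR of 11197 tested genes was searched on the transcript strand for the 8mer TCATCTCA, then for the 7mer-m8 TCATCTC, the 7mer-A1 CATCTCA and the 6mer CATCTC, and each gene was given its best class. An 8mer was found in 500 genes (4.47% of those searched), whose median log2 fold change was -0.18. Of these, 51.8% fell and 16.8% rose. The 957 genes with a 7mer-m8 had a median of -0.15 (49% fell) and the 993 with a 7mer-A1 one of -0.1 (44.1% fell). The 1551 genes with a 6mer, at -0.051 (36.5% fell), lay close to the 7196 genes with no match, at -0.048 (37% fell). The 8mer median was lower than that of genes with no match by a difference of -0.13, with an SD of 0.014 over the 4 pairings of a mimic with a scrambled miRNA library. After LncND siRNA the 8mer median was 0.0096 and that of genes with no match 0.04, a difference of -0.031. Over all 3′ UTR lengths together, the 7mer classes lay below genes with no match by similar amounts after both treatments. For the 7mer-m8 the difference was -0.099 with the mimic and -0.091 with LncND siRNA. For the 7mer-A1 it was -0.057 and -0.053. For the 6mer it was -0.0033 and -0.074. Whether these differences themselves differ between the treatments was not tested. A match is a description of the sequence and not evidence of a bound site.

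**Figure D2:**
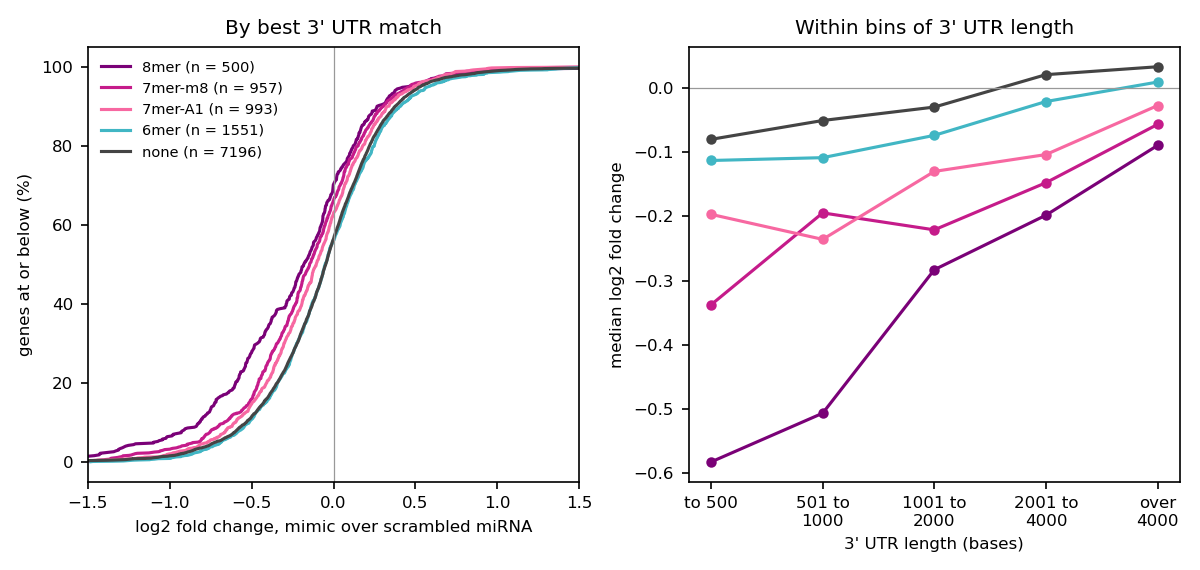
Left, cumulative share of genes (%) against log2 fold change of mimic over scrambled miRNA, 1 line for each best 3′ UTR match class. Right, median log2 fold change of the same classes (lines coloured as on the left) in bins of 3′ UTR length in bases: the 8mer line runs from -0.58 to -0.09 and the line without a match from -0.08 to 0.033.

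Genes with an 8mer have long 3′ UTRs, with a median of 3324 bases against 695.5 in genes with no match. Within bins of 3′ UTR length the 8mer genes had the lower median in every bin. Of genes with a 3′ UTR of up to 500 bases, the 17 with an 8mer had a median of -0.58 against -0.08 without a match, and 13 of the 17 fell. Between 500 and 1000 bases the medians were -0.51 (35 genes) and -0.051, and between 1000 and 2000 bases -0.28 (91 genes) and -0.03. Above 4000 bases they were -0.09 (200 genes) and 0.033, so the gap was narrowest in the longest 3′ UTRs. Over the 5 bins the 7mer-m8 median lay from no-match genes by -0.26 to -0.09 with the mimic and by -0.094 to 0.0001 with LncND siRNA. For the 7mer-A1 the range was -0.18 to -0.06 with the mimic and -0.037 to 0.027 with LncND siRNA, and for the 8mer -0.5 to -0.12 and -0.11 to 0.082. In every bin the distance of both 7mer classes below no-match genes was larger with the mimic, unlike over all lengths together. This was not tested. Among genes with no 3′ UTR match, the 237 with an 8mer in the coding sequence had a median of -0.15. The 4427 with no match there either had one of -0.042, a difference of -0.11. After LncND siRNA the medians of the same genes were -0.0574 and 0.0525, also a difference of -0.11. Of the 206 searched genes that fell at least 2-fold, 82 (39.8%) had a 7mer or 8mer, against 14 of 106 (13.2%) that rose at least 2-fold and 21.9% of all genes searched. The remaining falls of that size, the majority, had a 6mer or no match.

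The 8mer genes with large falls named here, among them those whose sites are printed above, cover adhesion, growth control and transport. CDH11, a mesenchymal cadherin, stood at 19.7 and 20.3 FPKM with the scrambled miRNA and at 4.33 and 4.19 FPKM with the mimic (-2.0 ± 0.056, adjusted p = 1.88e-08). INHBA, the activin A subunit gene, fell from 16.6 ± 0.82 FPKM to 4.37 ± 0.28 (-1.71), and VASH1, an angiogenesis inhibitor and tubulin carboxypeptidase gene, from 23.2 ± 0.502 FPKM to 6.86 ± 1.01 (-1.63). The kinetochore gene ZWILCH fell from 29.6 ± 0.0561 FPKM to 8.96 ± 0.562 (-1.62) and the cell cycle transcription factor gene MYBL2 from 94.8 ± 2.28 FPKM to 33.8 ± 1.71 (-1.46). The xylosyltransferase gene GXYLT1 fell from 11.5 ± 0.688 FPKM to 3.64 ± 0.0709 (-1.43), ABHD14A from 20.8 ± 1.16 FPKM to 7.11 ± 0.246 (-1.43) and TUB from 50.9 ± 1.69 FPKM to 18.9 ± 0.664 (-1.38). The death receptor gene TNFRSF10B, which also holds an 8mer, fell from 41.4 ± 0.279 FPKM to 15.9 ± 0.274 (-1.33). In all 9 genes the groups did not overlap, as in 48.2% of tested genes in this direction.

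Of 32 reported miR-143 target genes, 23 were tested: 14 fell, 1 rose and 8 did not pass (60.9% and 4.3% falling and rising, against 38.6% and 24.6% of all tested genes), with a median of -0.35 against -0.062 for all tested genes. IGFBP5, an IGF-binding protein gene, fell from 5.09 ± 0.296 FPKM to 2 ± 0.221 (-1.02) and the actin bundling gene FSCN1 from 199 ± 2.47 FPKM to 102 ± 1.34 (-0.96). The adducin gene ADD3 fell from 54.2 ± 3.63 FPKM to 27.3 ± 0.777 (-0.96), the laminin receptor subunit gene ITGA6 from 3.11 ± 0.302 FPKM to 1.29 ± 0.0711 (-0.84) and the ARF regulator gene ASAP3 from 9.11 ± 0.155 FPKM to 4.72 ± 0.112 (-0.82). The kinase genes LIMK1 and MAPK7 fell from 22.2 ± 0.787 FPKM to 14.1 ± 0.618 (-0.61) and from 17.4 ± 0.805 FPKM to 11.7 ± 0.782 (-0.54), the transcription factor gene ELK1 from 13.4 ± 0.536 FPKM to 8.42 ± 0.381 (-0.61) and the glycolytic gene HK2 from 19.2 ± 0.164 FPKM to 16.1 ± 0.121 (-0.24). BCL2 had 2.96 ± 0.511 FPKM with the scrambled miRNA and 2.9 ± 0.0322 with the mimic, a difference that missed the threshold (-0.015 ± 0.095, adjusted p = 0.902). NRAS, with a 7mer-m8, rose from 19.4 ± 1.28 FPKM to 26.8 ± 1.9 (0.45), and its call was lost without the filter on low values (0.45, limma adjusted p = 0.0635). The list was compiled from general knowledge of the field and not from a database.

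**Figure D3:**
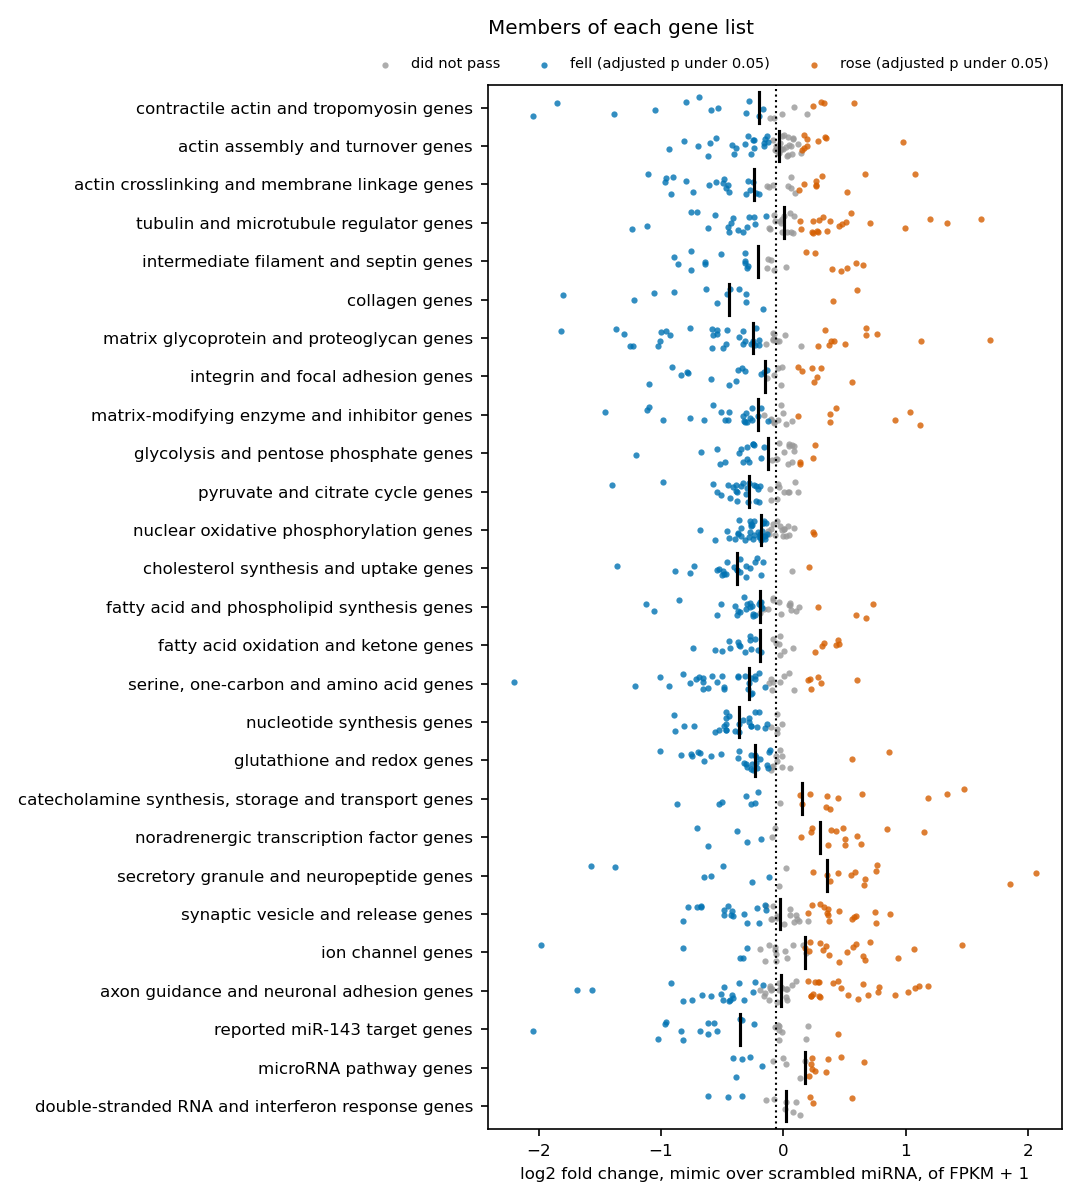
Log2 fold change of FPKM + 1, mimic over scrambled miRNA (horizontal axis), of each tested member of the gene lists drawn (rows). Blue points fell, orange points rose and grey points did not pass at an adjusted p of 0.05. Black bars are list medians and the dotted line is the median of all tested genes, -0.062.

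Cytoskeleton genes moved in both directions. Of 214 tested, 92 fell and 58 rose, 43% and 27.1% against 38.6% and 24.6% of all tested genes, and their median of -0.065 was near that of all genes. It was 0.0028 under median-ratio scaling. The contractile actin and tropomyosin genes were lower, with 12 of 21 falling, 4 rising and a median of -0.2. Besides TPM3 and CNN2, the actin-binding transgelin gene TAGLN2 stood at 384 and 381 FPKM with the scrambled miRNA and at 143.3 and 148 FPKM with the mimic (-1.39 ± 0.042, adjusted p = 2.20e-08). Smooth muscle actin ACTA2 fell from 10.9 ± 0.905 FPKM to 4.73 ± 0.0481 (-1.05), and the tropomyosin genes TPM1 and TPM4 from 56.9 ± 1.51 FPKM to 32.4 ± 0.177 (-0.79) and from 190.3 ± 4.1 FPKM to 118 ± 6 (-0.69). The family did not move as 1 block: TPM2 rose from 7.85 ± 0.155 FPKM to 12.2 ± 0.472 (0.58), CNN3 from 130.3 ± 0.264 FPKM to 164 ± 6.92 (0.33) and the actin-binding gene CALD1 from 38.2 ± 0.23 FPKM to 47.4 ± 0.461 (0.31). The 3′ UTR of CALD1, which rose, holds a 7mer-m8. Cytoplasmic actin ACTG1 fell from 899.9 ± 8.58 FPKM to 729.7 ± 9.27 (-0.30).

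**Figure D4:**
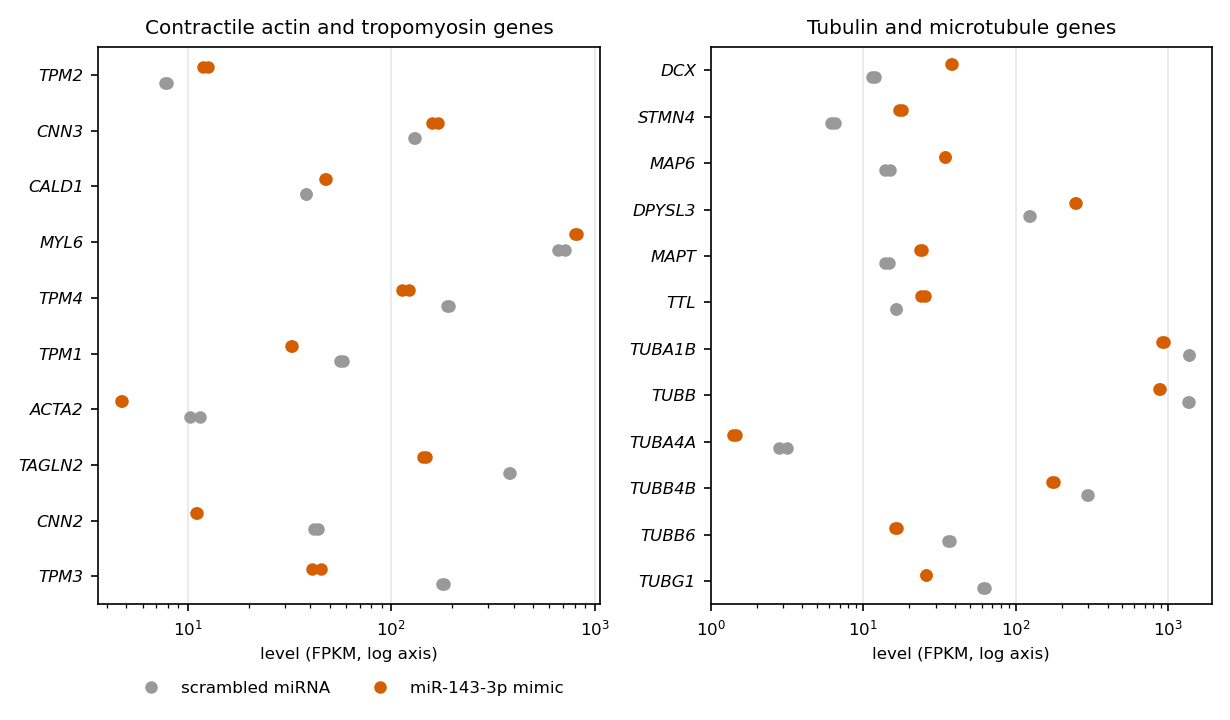
Level (FPKM, log axis) in each library of the contractile actin and tropomyosin genes (left) and the tubulin and microtubule genes (right) with the largest changes, ordered from the largest rise at the top to the largest fall at the bottom, 2 points per group.

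Among actin assembly and turnover genes, 20 of 54 fell and 9 rose (37% and 16.7%, against 38.6% and 24.6% of all tested genes), so the share that fell was near that of all genes. The median was -0.034, or 0.027 under median-ratio scaling. The formin genes DIAPH1 and DIAPH3, which drive filament growth, fell from 22.7 ± 0.626 FPKM to 12.5 ± 0.41 (-0.81) and from 8.48 ± 0.487 FPKM to 4.85 ± 0.175 (-0.70), and the cofilin phosphatase gene SSH2 from 20.6 ± 0.215 FPKM to 10.3 ± 0.299 (-0.94). WDR1, a partner of cofilin in filament disassembly, rose from 27.9 ± 0.0729 FPKM to 55.7 ± 0.417 (0.97). Crosslinking and membrane linkage genes fell in 20 of 36 cases and rose in 9, with a median of -0.24. PDLIM1, a filament-associated LIM protein gene, fell from 18.8 ± 0.446 FPKM to 8.21 ± 0.245 (-1.11), the filamin gene FLNC from 21.3 ± 0.709 FPKM to 10.9 ± 0.261 (-0.90) and the plastin gene PLS1 from 10.7 ± 0.0202 FPKM to 5.18 ± 0.319 (-0.92). EPB41L1, a neuronal membrane skeleton gene, rose from 5.8 ± 0.0169 FPKM to 13.3 ± 0.224 (1.07).

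RHOB, an endosomal small GTPase gene, stood at 15.2 and 14.8 FPKM with the scrambled miRNA and at 51.5 and 51.6 FPKM with the mimic (1.72 ± 0.045, adjusted p = 1.30e-08), while RHOA fell from 237 ± 0.791 FPKM to 171 ± 0.974 (-0.46). The Rac activator gene TIAM1 rose from 4.21 ± 0.0111 FPKM to 11.7 ± 0.0481 (1.29) and the CDC42 effector gene CDC42EP1 fell from 4.36 ± 0.0107 FPKM to 0.815 ± 0.0288 (-1.56). RHOB and RHOA thus lay on opposite sides.

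Tubulin and microtubule genes moved in both directions. Of 51 tested, 20 rose and 17 fell (39.2% and 33.3%, against 24.6% and 38.6% of all tested genes), with a median of 0.0067, or -0.0081 without mimic replicate 1. The tubulins named here fell: TUBB6 from 36.5 ± 0.418 FPKM to 16.4 ± 0.33 (-1.11), TUBB4B from 297 ± 2.81 FPKM to 176 ± 4.48 (-0.75), TUBB from 1353 ± 12.4 FPKM to 880.5 ± 7.79 (-0.62), TUBA1B from 1366 ± 10.1 FPKM to 926 ± 16.6 (-0.56) and the nucleating gamma-tubulin TUBG1 from 62.1 ± 1.82 FPKM to 25.7 ± 0.0825 (-1.24). TUBA1A did not pass. Its log2 fold change was 0.059 under median-ratio scaling and -0.15 under quantile normalization (limma adjusted p = 0.29 and 0.00254). Tubulin isotypes share long stretches of sequence, so reads may be split between them. The neuronal microtubule regulators named here rose. STMN4 stood at 6.17 and 6.57 FPKM with the scrambled miRNA and at 18 and 17.2 FPKM with the mimic (1.34 ± 0.058, adjusted p = 1.38e-07), and MAP6, which stabilizes microtubules, rose from 14.5 ± 0.816 FPKM to 34.4 ± 0.336 (1.20). DPYSL3 rose from 124 ± 1.04 FPKM to 248 ± 1.94 (0.99) and the tau gene MAPT from 14.3 ± 0.743 FPKM to 24 ± 0.589 (0.71). Among intermediate filament and septin genes, 12 of 24 fell and 7 rose, with a median of -0.21. The lamin genes LMNA and LMNB1 fell from 141 ± 1.33 FPKM to 77.5 ± 0.866 (-0.86) and from 68.9 ± 2.74 FPKM to 43.9 ± 0.559 (-0.64), and SEPT6 from 334 ± 7.26 FPKM to 197 ± 2.29 (-0.76). The neurofilament-type genes NEFH and INA rose from 16.8 ± 0.137 FPKM to 26.9 ± 0.223 (0.65) and from 39 ± 1.31 FPKM to 59.2 ± 0.841 (0.59), whereas PRPH fell from 5.79 ± 0.572 FPKM to 2.65 ± 0.0967 (-0.89).

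Matrix genes mostly fell. Of 130 tested, 78 fell (60%) and 27 rose (20.8%), against 38.6% and 24.6% of all tested genes, with a median of -0.25, or -0.2 under median-ratio scaling, and 14 fell at least 2-fold against 4 that rose. The fibroblast and mesenchymal markers given above, some of which are matrix genes too, moved with this group, and their part in the result was not tested. Of 14 collagen genes 12 fell and 2 rose. COL16A1, which encodes a fibril-associated collagen, stood at 9.94 and 9.47 FPKM with the scrambled miRNA and at 1.85 and 2.32 FPKM with the mimic (-1.80 ± 0.083, adjusted p = 2.00e-07). COL5A1 fell from 3.23 ± 0.0695 FPKM to 1.03 ± 0.0425 (-1.06) and COL4A2 from 51.6 ± 0.391 FPKM to 41.4 ± 1.44 (-0.31), while COL6A1 and COL6A2 rose from 30.6 ± 0.222 FPKM to 40.9 ± 1 (0.40) and from 48 ± 0.71 FPKM to 73.3 ± 0.0129 (0.60).

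Glycoprotein and proteoglycan genes fell in 30 of 51 cases and rose in 11 (58.8% and 21.6%, against 38.6% and 24.6% of all tested genes). The laminin chain gene LAMA4 fell from 6.16 ± 0.418 FPKM to 1.04 ± 0.0737 (-1.81), while the laminin chain gene LAMA3 stood at 0.413 and 0.437 FPKM with the scrambled miRNA and at 3.66 and 3.54 FPKM with the mimic (1.69 ± 0.084, adjusted p = 2.89e-07). The microfibril gene MFAP4 fell from 191 ± 3.04 FPKM to 73.7 ± 0.232 (-1.36), the basement membrane gene NID1 from 51.2 ± 2.85 FPKM to 21.3 ± 1.2 (-1.23) and the collagen-binding proteoglycan gene LUM from 34.8 ± 0.671 FPKM to 17.8 ± 0.665 (-0.93). The proteoglycan gene SPOCK1 rose from 13.4 ± 0.776 FPKM to 30.3 ± 0.177 (1.12) and RELN, which guides migrating neurons, from 6.31 ± 0.00556 FPKM to 10.7 ± 0.133 (0.68). Integrin and focal adhesion genes fell in 14 of 26 cases and rose in 7 (53.8% and 26.9%). TNS3, which links integrins to actin, fell from 15.4 ± 0.916 FPKM to 6.68 ± 0.145 (-1.09), and ITGB5 rose from 41.4 ± 1.08 FPKM to 61.5 ± 1.36 (0.56). Matrix-modifying enzyme and inhibitor genes fell in 22 of 39 cases and rose in 7 (56.4% and 17.9%). The plasminogen activator gene PLAT fell from 7.62 ± 0.0435 FPKM to 2.14 ± 0.0823 (-1.46) and the gelatinase gene MMP2 from 188 ± 5.41 FPKM to 94.6 ± 0.122 (-0.98). The collagen crosslinking gene LOX fell from 4.15 ± 0.524 FPKM to 2.27 ± 0.0663 (-0.65) and its relative LOXL2 rose from 6.58 ± 0.117 FPKM to 15.4 ± 0.0654 (1.12).

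Metabolic genes fell in 219 of 324 cases (67.6%) and rose in 25 (7.7%), against 38.6% and 24.6% of all tested genes. Their median was -0.24, or -0.18 under median-ratio scaling, and 9 fell at least 2-fold. Of 32 glycolysis and pentose phosphate genes, 16 fell and 4 rose. PGK1, an ATP-forming enzyme of glycolysis, stood at 293 and 298 FPKM with the scrambled miRNA and at 124 and 131 FPKM with the mimic (-1.20 ± 0.045, adjusted p = 6.38e-08). GAPDH had 2619 ± 90.1 FPKM with the scrambled miRNA and 2706 ± 8.87 with the mimic, a difference that missed the threshold (0.048 ± 0.06, adjusted p = 0.508). The pentose phosphate gene PGD fell from 97.2 ± 1.16 FPKM to 60.6 ± 1.93 (-0.67). Of 34 pyruvate and citrate cycle genes 24 fell and 0 rose (limma), or 24 and 1 at an unadjusted p under 0.05. Pyruvate carboxylase PC, which feeds the cycle, fell from 12.8 ± 0.128 FPKM to 4.24 ± 0.429 (-1.40) and the aspartate aminotransferase gene GOT1 from 25 ± 0.775 FPKM to 12.1 ± 0.0642 (-0.99). Of 53 nuclear oxidative phosphorylation genes 36 fell and 2 rose, by small amounts: the largest falls included cytochrome c, CYCS, from 41.6 ± 2.12 FPKM to 27.9 ± 1.44 (-0.56).

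Lipid genes fell as well. Of 25 cholesterol synthesis and uptake genes 23 fell and 1 rose (92% and 4%, against 38.6% and 24.6% of all tested genes), with a median of -0.38. STARD4, a sterol transporter gene with a 7mer-m8, stood at 67.9 and 73.6 FPKM with the scrambled miRNA and at 26.4 and 27.5 FPKM with the mimic (-1.36 ± 0.051, adjusted p = 6.25e-08). FDFT1 and DHCR7 fell from 78.5 ± 0.484 FPKM to 45.9 ± 1.01 (-0.76) and from 36.5 ± 0.171 FPKM to 21.6 ± 0.682 (-0.73). Of 40 fatty acid and phospholipid synthesis genes 23 fell and 4 rose. The fatty acid elongase gene ELOVL6 fell from 22.7 ± 0.225 FPKM to 10.4 ± 0.711 (-1.05) and LPIN1, which makes diacylglycerol, rose from 13.2 ± 0.352 FPKM to 21.6 ± 0.153 (0.68). Fatty acid oxidation and ketone genes fell in 15 of 28 cases and rose in 6 (53.6% and 21.4%).

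Amino acid and nucleotide metabolism showed the same direction. Of 43 serine, one-carbon and amino acid genes 29 fell and 6 rose (67.4% and 14%, against 38.6% and 24.6% of all tested genes). Besides ASS1, the cysteine-forming enzyme gene CTH fell from 3.7 ± 0.00836 FPKM to 1.03 ± 0.0365 (-1.21) and the glutamine carrier gene SLC1A5 from 42.1 ± 0.297 FPKM to 24.4 ± 1.06 (-0.76). Of 31 nucleotide synthesis genes 26 fell and 0 rose (limma), or 26 and 0 at an unadjusted p under 0.05. PRPS1, which makes the ribose donor of nucleotides, fell from 33.7 ± 1.51 FPKM to 17.6 ± 0.125 (-0.90), and the ribonucleotide reductase subunit genes RRM2 and RRM2B from 77.3 ± 1.46 FPKM to 46.3 ± 1.54 (-0.73) and from 15.8 ± 0.0373 FPKM to 8.59 ± 0.181 (-0.81). Of 38 glutathione and redox genes 27 fell and 2 rose. The peroxiredoxin gene PRDX5 fell from 301 ± 13.2 FPKM to 149 ± 6.46 (-1.01) and the thioredoxin reductase gene TXNRD1, with an 8mer, from 37.4 ± 1.17 FPKM to 22.7 ± 0.356 (-0.70). TXNIP, a thioredoxin inhibitor and glucose sensor, rose from 31.6 ± 0.838 FPKM to 58.2 ± 1.48 (0.86).

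Neuronal genes moved in both directions. Of 201 tested, 91 rose (45.3%) and 60 fell (29.9%), against 24.6% and 38.6% of all tested genes, with a median of 0.066, or 0.12 under median-ratio scaling. Of 21 secretory granule and neuropeptide genes 12 rose and 7 fell, with a median of 0.36. CARTPT, a neuropeptide precursor gene, stood at 1.17 and 1.3 FPKM with the scrambled miRNA and at 7.47 and 9.24 FPKM with the mimic (2.06 ± 0.096, adjusted p = 2.07e-07). The granin gene CHGB rose from 169 ± 0.271 FPKM to 288 ± 14.2 (0.76), and CHGA, another granin gene, stood at 188 and 171 FPKM with the scrambled miRNA and at 659.7 and 641 FPKM with the mimic. The precursor genes VGF and NMU went the other way, falling from 509 ± 18.3 FPKM to 171 ± 2.77 (-1.57) and from 35 ± 0.831 FPKM to 12.9 ± 1.74 (-1.38). In these genes the groups did not overlap. Over all tested genes the groups did not overlap with the mimic higher in 33.7% and with the mimic lower in 48.2%.

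**Figure D5:**
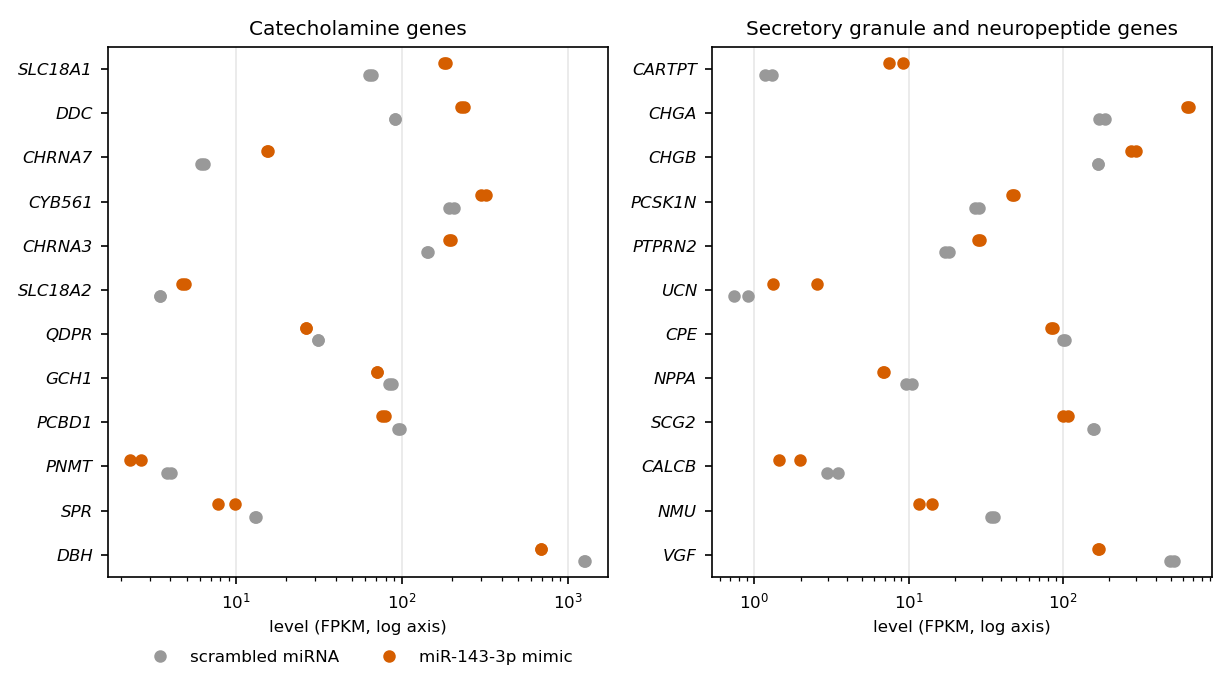
Level (FPKM, log axis) in each library of the catecholamine genes (left) and the secretory granule and neuropeptide genes (right) with the largest changes, 2 points per group. SLC18A1, DDC, CARTPT and CHGA lie to the right of their scrambled miRNA points, and DBH and VGF to the left.

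Catecholamine genes rose in 11 of 19 cases and fell in 7 (57.9% and 36.8%, against 24.6% and 38.6% of all tested genes), so the share that fell was near that of all genes. DDC, which makes dopamine from L-DOPA, stood at 90.9 and 91.2 FPKM with the scrambled miRNA and at 226 and 237 FPKM with the mimic (1.34 ± 0.043, adjusted p = 2.82e-08). SLC18A1, the granule monoamine transporter gene, stood at 65.9 and 63.6 FPKM with the scrambled miRNA and at 184 and 179 FPKM with the mimic (1.47 ± 0.042, adjusted p = 1.88e-08). DBH, which turns dopamine into noradrenaline, stood at 1279 and 1249 FPKM with the scrambled miRNA and at 696 and 689 FPKM with the mimic (-0.87 ± 0.049, adjusted p = 5.84e-07). Synthesis steps on the same route thus lay on both sides, with DDC higher and DBH lower in every mimic library. The nicotinic receptor gene CHRNA7 rose from 6.26 ± 0.188 FPKM to 15.4 ± 0.244 (1.18). Of 20 noradrenergic transcription factor genes 13 rose and 5 fell (65% and 25%). HAND1 rose from 47.7 ± 2.68 FPKM to 107 ± 1.02 (1.14), INSM2 from 31.2 ± 0.488 FPKM to 56.8 ± 0.41 (0.85) and GATA3 from 75.9 ± 1.91 FPKM to 116 ± 0.666 (0.60), while PHOX2A fell from 347 ± 12.6 FPKM to 212 ± 3.66 (-0.71). The neurotrophic factor receptor gene RET, a noradrenergic marker, fell from 280.1 ± 8.04 FPKM to 133 ± 3.82 (-1.07).

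Ion channel genes rose in 17 of 34 cases and fell in 5 (50% and 14.7%, against 24.6% and 38.6% of all tested genes), with a median of 0.18. The calcium channel subunit gene CACNA2D1 stood at 14.6 and 15.2 FPKM with the scrambled miRNA and at 42.4 and 42.9 FPKM with the mimic (1.46 ± 0.046, adjusted p = 2.78e-08). The sodium channel gene SCN2A rose from 2.14 ± 0.119 FPKM to 4.99 ± 0.219 (0.93) and the potassium channel gene KCNC1 from 1.83 ± 0.125 FPKM to 4.94 ± 0.0684 (1.07). The T-type calcium channel gene CACNA1G fell from 6.36 ± 0.391 FPKM to 0.871 ± 0.0933 (-1.98). Synaptic vesicle and release genes were divided, with 15 of 46 rising, 17 falling (32.6% and 37%) and a median of -0.024 that was 0.028 under median-ratio scaling. SYT5, a calcium sensor gene, rose from 7.01 ± 0.0881 FPKM to 13.7 ± 0.255 (0.87). CPLX2, with an 8mer, fell from 16.3 ± 0.255 FPKM to 9.09 ± 0.32 (-0.78). Axon guidance and neuronal adhesion genes were divided too, with 23 of 61 rising, 19 falling (37.7% and 31.1%) and a median of -0.019 that was 0.049 under median-ratio scaling. NCAM2, CNTN4 and NRP1 rose from 3.09 ± 0.0958 FPKM to 8.28 ± 0.0599 (1.18), from 9.5 ± 0.484 FPKM to 21.1 ± 0.354 (1.08) and from 0.826 ± 0.0561 FPKM to 2.93 ± 0.135 (1.10). The guidance ligand gene SLIT2 fell from 3.24 ± 0.226 FPKM to 0.315 ± 0.0236 (-1.69) and the ephrin receptor gene EPHA2 from 11.3 ± 0.695 FPKM to 3.19 ± 0.344 (-1.56).

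Of 19 genes of the microRNA pathway itself 9 rose and 5 fell (47.4% and 26.3%, against 24.6% and 38.6% of all tested genes), none by 2-fold, with a median of 0.18. Several of these rises lost their call once unfiltered genes were included. Under median-ratio scaling and under quantile normalization, a fall lost its call and other members gained calls as rises. DICER1, which cuts precursors, rose from 11.2 ± 0.204 FPKM to 14.6 ± 0.483 (0.36), and the deadenylase subunit gene CNOT7 from 33.7 ± 1.67 FPKM to 53.7 ± 3.39 (0.66). XPO5, which exports precursors from the nucleus, fell from 25.8 ± 0.906 FPKM to 19.1 ± 0.272 (-0.41). Double-stranded RNA and interferon response genes, which sense transfected RNA, had 13 of 30 members tested, with 3 rising, 3 falling (23.1% and 23.1%) and a median of 0.02, so the share that rose was near that of all genes. OAS1 rose from 1.11 ± 0.000283 FPKM to 2.12 ± 0.256 (0.56), a low level. ISG15, EIF2AK2 and IFI6 went the other way (-0.61, -0.45 and -0.34), but each lost its call once unfiltered genes were included. STAT2, which rose (0.22), lost its call there too.

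The effect of the mimic was set against that of LncND siRNA in 1 limma fit of all 10 libraries. The 2 effects differed for 7551 of 12548 genes (60.2%). The genes named next were chosen for the size of their mimic effect, so the direction of their difference was largely fixed by that choice. Each effect is taken over its own scrambled control, and these controls differed in level. ECEL1 was far lower with the scrambled siRNA than with the scrambled miRNA, and lower than with the mimic. CXCR4 was higher with the scrambled siRNA than with the scrambled miRNA. The effects thus start from unlike levels, and the cause was not tested. ECEL1 fell with the mimic and stood at 2.8 ± 0.233 FPKM with the scrambled siRNA and 11.9 ± 0.452 FPKM with LncND siRNA (n = 3), and its difference of effects was -3.99 ± 0.12 (limma adjusted p = 4.45e-11). TFPI2 stood at 82.5 ± 4.12 FPKM with the scrambled siRNA and 246 ± 5.85 FPKM with LncND siRNA (n = 3), with a difference of -3.54 ± 0.069 (limma adjusted p = 3.95e-12). CXCR4 stood at 29.1 ± 1.14 FPKM with the scrambled siRNA and 15.5 ± 1.41 FPKM with LncND siRNA (n = 3), with a difference of 3.34 ± 0.088 (limma adjusted p = 3.38e-11). In TPM3 the siRNA groups were close, at 154 ± 5.12 FPKM with the scrambled siRNA and 148 ± 3.12 FPKM with LncND siRNA (n = 3), and the difference of -1.99 ± 0.068 (limma adjusted p = 1.95e-10) was nearly the mimic effect itself.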

How the data were processed

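Per the labels' protocols, RNA was extracted with the MirVana kit and stranded poly(A) libraries were prepared by the TruSeq method. The authors deposited FPKM per gene, here handled as other values because status words replace some numbers, made with TopHat 1.0.0 and Cufflinks on hg19 per the submitters' processing notes. For the annotation and strand setting, nothing is given in the sources used here. Of 25275 rows, 1304 off the assembled chromosomes and 246 with a status word were left out, and of repeated names the row with the highest mean was kept. The mimic effect was fitted on log2(FPKM + 1) using limma 3.58.1 (lmFit, then eBayes with a trend; R 4.3.3), 2-sided, with Benjamini-Hochberg adjustment over 12558 genes. That scale understates changes of low genes. Depth was estimated from the steps of the lowest FPKM values, and a 2-kb transcript at 1 FPKM then holds 27.5 to 74.8 fragments. The fit was tested on simulated data with few changed genes and independent noise. That test cannot show whether the libraries came from separate cultures, or how a shift of many genes affects the calls. 3′ UTRs were searched in 1 GENCODE 29 transcript per gene (GRCh38). The text names the 10 largest rises and falls with a mean of at least 5 FPKM, up to 6 called members per list and direction with the 3 highest, the 10 largest falls with an 8mer, reported targets, pathway genes and markers. Some items that these rules cover are not reported here. The comparison and the lists were chosen with earlier results of these data known.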

Additional observations from a re-analysis of the deposited data

How the results depend on the processing

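Of 402 genes that the naming rule covers, 367 were called, and 57 of these lost the call in at least 1 of 10 alternatives. Direction changed in 25 of the 402, of which 2 were called. Without the filter on low values, 5327 genes were called, against 7947 with it. Of these, 2000 rose and 3327 fell, against 3094 and 4853 with the filter. With a pseudocount of 0.1 FPKM, 633 genes changed at least 2-fold, against 344. The difference between the 8mer and no-match medians was -0.15 with that pseudocount, -0.15 with a mean of at least 5 FPKM and -0.10 with the best match in any annotated transcript, the first and last chosen after seeing the data. Leaving out each library in turn, which leaves a group with 1 library assumed to vary like the others, gave 6773 to 7574 called genes, 2576 to 2862 rising and 4197 to 4736 falling, 352 to 370 at least 2-fold, 6705 to 7657 differing from LncND siRNA, and medians differing by -0.15 to -0.12. The log2 fold change of BCL2, which did not pass, turned to 0.038 under median-ratio scaling, to 0.061 under quantile normalization and to 0.12 without scrambled miRNA replicate 2. The cause was not tested. The groups share only replicate numbers, whose libraries deviated together with r = 0.13 across genes in 2 pairs. With the replicate number as a block, 8247 genes were called. A 2-kb transcript at 1 FPKM holds as few as 27.5 estimated fragments, which limits the precision of low genes.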

Other observations

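Several of the genes with large rises are imprinted, that is, expressed mainly from the copy of 1 parent, so a list of 21 imprinted genes was written after the values had been seen and is given as a description only. Of the 16 tested, 7 rose, 6 fell and 3 did not pass, with a median log2 fold change of 0.0087, and 4 rose at least 2-fold. Over all tested genes 24.6% rose, 38.6% fell and 0.916% rose at least 2-fold. On chromosome 11, IGF2, a fetal growth factor gene, stood at 243 and 235 FPKM with the scrambled miRNA and at 699.9 and 633 FPKM with the mimic (1.47 ± 0.055, adjusted p = 6.53e-08), and the cell cycle inhibitor gene CDKN1C at 27.5 and 25.9 FPKM with the scrambled miRNA and at 92.3 and 95 FPKM with the mimic (1.77 ± 0.046, adjusted p = 1.30e-08), beside H19, described above. DLK1, a Notch ligand-like gene on chromosome 14, stood at 527 and 519 FPKM with the scrambled miRNA and at 1533 and 1485 FPKM with the mimic (1.53 ± 0.049, adjusted p = 2.82e-08). PEG10, NNAT and SNRPN fell from 41.1 ± 1.26 FPKM to 21.1 ± 0.52 (-0.93), from 339.5 ± 1.71 FPKM to 210.4 ± 0.786 (-0.69) and from 135 ± 0.0233 FPKM to 94.3 ± 3.82 (-0.51). In each of these genes the groups did not overlap, which held with the mimic higher in 33.7% of all tested genes and with the mimic lower in 48.2%. Other genes with a row on chromosome 11 in the list were closer together: SLC22A18 had 4.1 ± 0.238 FPKM with the scrambled miRNA and 4.39 ± 0.0541 with the mimic, a difference that missed the threshold (0.079 ± 0.07, adjusted p = 0.347), and KCNQ1 rose from 3.02 ± 0.268 FPKM to 3.86 ± 0.267 (0.28).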
